A study of Mus musculus with 4 samples.

Results

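Growth hormone and the insulin-like growth factor (IGF) system were followed through 10 genes of the liver: Ghr, Stat5b, Socs2, Cish, Igf1, Igfals, Igfbp1, Igfbp2, Igfbp3 and Igfbp4. They were picked by gene symbol as a pathway, with a rule that uses no measured value but with earlier results of these data known, and are 10 of the 27027 entries in the deposited count table. Hepatic RNA came from male C57BL/6J mice (strain C57BL/6 in the labels), 9 to 12 weeks old, that had been fasted for 10 h overnight and then received 1 i.p. injection of 0.9% NaCl (control) or of acetaminophen (APAP, 300 mg/kg, dissolved in 0.9% NaCl), with free access to food thereafter. Control livers were taken after 24 h (6 mice) and 48 h (6 mice) and APAP livers after 24 h (7 mice) and 48 h (7 mice). The RNA of each group was pooled in equal shares and sequenced as 1 library by massive analysis of cDNA ends (MACE), which reads the 3′ end of polyadenylated mRNA. A pool is therefore a mean over its mice. Differences have no replicate check, since mouse-to-mouse variation was lost by pooling, and no p-value is given for either time alone.

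Growth hormone from the pituitary binds its receptor on hepatocytes, the kinase JAK2 phosphorylates STAT5, and STAT5 turns on Igf1, Igfals and the feedback inhibitors Socs2 and Cish. The liver releases IGF-1 into blood, where most of it travels in a ternary complex with a binding protein, chiefly IGFBP-3, and the acid-labile subunit encoded by Igfals. The other binding proteins have their own controls: Igfbp1 is raised in liver by fasting, stress and low insulin, and Igfbp2 is likewise a hepatic product that responds to the nutritional state. In rodents the pulsatile male pattern of growth hormone also sets the sex-specific expression of many liver genes through STAT5B.

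The libraries held 4859661 (control 24 h), 5191990 (control 48 h), 5698778 (APAP 24 h) and 4938164 (APAP 48 h) reads on genes. Counts were divided by size factors (0.880, 0.933, 1.17 and 1.07 in the same order), and these normalised reads are compared between pools, never between genes. A fold is APAP over the control pool of the same time, with a 95% exact (Clopper-Pearson) interval that covers counting error only. A gene is called higher or lower where the fold is at least 2 in either direction and the interval leaves out 1. Genes were tested where their normalised reads averaged 10 or more over the 4 pools. Of these 12113 genes, which include all 10 of the axis, 592 were called higher and 604 lower at 24 h, and 580 higher and 604 lower at 48 h. Scaling to library totals instead shifts every log2 fold by 0.19 at 24 h and by 0.27 at 48 h, and then higher genes make up 71.3% and 75.8% of the calls rather than 49.5% and 49.0%. The tissue label was checked against 8 hepatocyte markers, of which 7 had an entry under the symbol searched (Tf had none). These 7, albumin among them, took 9.78% to 11.6% of the reads in every pool.

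As MACE reads start near the 3′ end of a transcript, the terminal exon is given with the gene, on GRCm38 (mm10). Ghr (ENSMUSG00000055737) spans 3317760 to 3583492 of chromosome 15 on the minus strand, and the terminal exon of its principal transcript is 3317760 to 3320722. Igfbp1 (ENSMUSG00000020429) lies on chromosome 11 from 7197782 to 7202546 on the plus strand, with its terminal exon at 7201886 to 7202546. Its neighbour Igfbp3 (ENSMUSG00000020427) is on the minus strand of the same chromosome from 7206086 to 7213923. Igfbp2 (ENSMUSG00000039323) is on the plus strand of chromosome 1 from 72824503 to 72852474, with its terminal exon at 72851998 to 72852474. Ligand and partner lie on the plus strand, Igf1 (ENSMUSG00000020053) on chromosome 10 from 87858265 to 87937042 and Igfals (ENSMUSG00000046070) on chromosome 17 from 24865997 to 24882010, as do Igfbp4 (chromosome 11, 99041244 to 99054392) and Cish (chromosome 9, 107296026 to 107302784). Stat5b (chromosome 11, 100780731 to 100850724) and Socs2 (chromosome 10, 95385362 to 95417180) are on the minus strand. Reads cannot separate isoforms that share a 3′ end, and a gene count of Ghr sums all of its annotated transcripts. The last 300 bases of Socs2 are also found in the pseudogenes Gm9847 (100% identity over 265 bases) and Gm8000, each with at most 1 read in any pool, and those of Igfbp4 match transcripts of 5 other genes over 100 to 144 bases. The other 8 genes had no such match.

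RefSeq promoter windows of 300 bases (250 before and 50 after the start, build GRCm38.p6) were held for 9 of the 10 genes. The windows shown are 1 for each of the 3 genes with a match to either of 2 motifs searched. Capitals mark the letters TTCNNNGAA, which STAT factors bind, in Cish and Igfals, and CAAAACA, as in insulin response elements bound by FOXO factors, in Igfbp1.
Cish, chr9:107296409-107296708, plus strand: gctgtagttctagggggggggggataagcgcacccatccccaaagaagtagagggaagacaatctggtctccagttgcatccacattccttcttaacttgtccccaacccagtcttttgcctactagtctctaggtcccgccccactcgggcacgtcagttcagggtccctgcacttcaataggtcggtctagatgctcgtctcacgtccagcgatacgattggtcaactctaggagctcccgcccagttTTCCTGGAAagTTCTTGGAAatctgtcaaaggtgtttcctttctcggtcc
Igfals, chr17:24877981-24878280, plus strand: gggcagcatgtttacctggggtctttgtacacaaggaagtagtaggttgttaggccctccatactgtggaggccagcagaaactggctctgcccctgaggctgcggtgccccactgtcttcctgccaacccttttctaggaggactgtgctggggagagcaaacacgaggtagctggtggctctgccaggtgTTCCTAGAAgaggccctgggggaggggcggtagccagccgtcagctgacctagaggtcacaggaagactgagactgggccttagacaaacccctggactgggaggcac
Igfbp1, chr11:7197537-7197836, plus strand: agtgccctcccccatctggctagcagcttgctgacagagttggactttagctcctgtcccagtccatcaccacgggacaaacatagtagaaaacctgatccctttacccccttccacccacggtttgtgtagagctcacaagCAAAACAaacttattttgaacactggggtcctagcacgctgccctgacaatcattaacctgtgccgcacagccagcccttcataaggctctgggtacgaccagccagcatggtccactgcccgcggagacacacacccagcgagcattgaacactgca
Cish holds TTCNNNGAA 2 times, starting at base 1 and base 12 from its start, and Igfals holds it 58 bases before this start and once more in another of its 3 windows. Searched on both strands, TTCNNNGAA occurs in 8.30% and CAAAACA in 6.28% of all 32851 windows of this length. The windows of the other genes hold neither, which says only that these letters are not in these bases. A match is a description of the sequence and not evidence of binding.

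At 24 h, 2 of the 10 genes were called higher (Igfbp1 and Socs2) and 1 lower (Ghr), beside 4.89% higher and 4.99% lower among all genes tested. At 48 h, Igfbp1 was called higher and Igfbp2 lower, beside 4.79% and 4.99%. Igfbp1 was thus the gene called at both times, and no gene of the axis was called lower at both. At the 5-fold threshold that the study used for induced genes, 0 of the 10 genes passed at 24 h (0.652% higher and 0.636% lower among all genes) and 1, Igfbp1, at 48 h (0.553% and 0.768%). In 6 of the 10 genes at 24 h and 7 at 48 h the log2 fold was larger in size than the log2 difference between the control pools. The same was not counted over all genes, so these counts have no background to be read against. Taken over both times with time as a block, a fit that treats the fold as equal at 24 h and 48 h and leaves 1 residual degree of freedom, 3 of the 10 genes passed an adjusted p of 0.05 in edgeR's quasi-likelihood test. Igfbp1 was higher (log2 fold 1.81, adjusted p = 9.68e-05 by edgeR), beside 3.68% of all genes. Ghr (log2 fold -1.04, adjusted p = 5.53e-04 by edgeR) and Igfals (log2 fold -0.66, adjusted p = 0.0164 by edgeR) were lower, beside 6.86%. Socs2 (0.63, edgeR adjusted p = 0.151) and Igfbp2 (-0.46, edgeR adjusted p = 0.319) did not pass. The folds of all these genes, passed or not, differed between the times beyond counting error. The fold at 48 h over that at 24 h was 2.82 for Igfbp1, 1.38 for Ghr, 1.28 for Igfals, 0.542 for Socs2 and 0.338 for Igfbp2. A fitted log2 fold is therefore that of neither time. Each of these edgeR tests compares 4 pools and not mice, and the spread it uses draws on the other genes. The fit was run with these size factors alone. Scaling to library totals raises every log2 fold, by 0.19 at 24 h and 0.27 at 48 h, and was not tried in it. The control pools, which received no APAP, give the only measure of how far pools differ without the drug. They were taken at different times after the fast and the injection, so their difference also holds any effect of time. Between the control pools, 1 of the 10 genes (Socs2) was called, higher at 48 h, beside 1.77% of all genes higher and 1.44% lower.

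**Figure D1:**
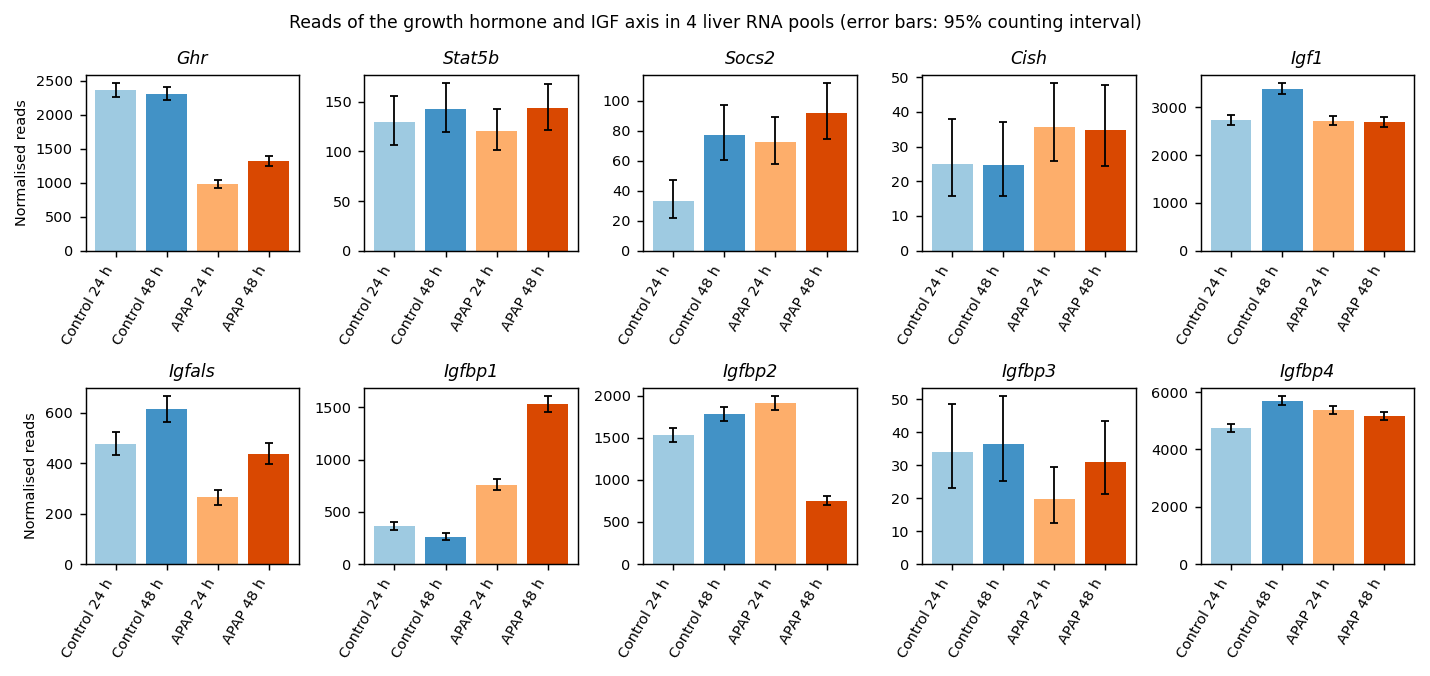
Normalised reads (y axis, linear from 0) of the 10 genes in the 4 pools, with 1 bar per pool and error bars for the 95% counting interval. Ghr was at 2366 and 2314 in the control pools and at 978 and 1322 after APAP, while Igfbp1 went from 363 and 259.5 in the controls to 759.7 and 1531 after APAP.

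The receptor came first in the pathway and was lower after APAP. Ghr, which encodes the growth hormone receptor and its circulating binding form, had 2366 and 2314 normalised reads in the controls of 24 h and 48 h, and 978 and 1322 in the APAP-treated livers of these times. Both APAP pools were below both control pools. Ghr was 2.42 times lower (95% interval 2.25 to 2.60) at 24 h, a fold that 3.06% of all genes matched or went below. It was 1.75 times lower (1.64 to 1.87) at 48 h, which did not reach 2-fold. The control pools differed by a fold of 0.978 (0.920 to 1.04). The fold at 48 h was 1.38 times (1.25 to 1.53) that at 24 h, so that Ghr was less far below its control at the later time. In whole-liver RNA, fewer cells of a type and less RNA per cell cannot be told apart.

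Necrosis after APAP is known to strike hepatocytes around the central vein, and their markers were lower in both APAP pools, as was Ghr. Of the 8 tested of 9 pericentral markers, 6 were called lower at 24 h and 7 at 48 h, beside 4.99% of all genes at either time, and 0 were called higher. Between the APAP pools the pericentral sum at 48 h was 0.853 times that at 24 h, while Ghr was 1.35-fold higher at 48 h and the periportal sum 1.58 times that at 24 h. Their summed normalised reads were 20146 and 22413 in the controls against 8006 and 6830 after APAP. Glul, the glutamine synthetase of the innermost pericentral hepatocytes, was 9.33 times lower at 24 h and 11.8 times lower at 48 h. Periportal markers summed to 28455 and 35739 in the controls against 16734 and 26380, with 3 of 8 called lower at 24 h and 1 at 48 h. The sum of the 7 hepatocyte markers was 0.934 times its control at 24 h and 0.978 times at 48 h, with 1 (Fgb) called higher at 24 h and 0 called at 48 h. Scaled to these hepatocyte markers, the fold of Ghr was 0.443 at 24 h and 0.584 at 48 h. The part of either hepatocyte zone in the level of Ghr was not tested.

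Stat5b, the STAT5 form that carries the male growth hormone signal in liver, had 129.6 and 143 normalised reads in the controls and 121 and 143 after APAP. The 4 pools overlapped within counting error. Its fold at 24 h was 0.933 (0.724 to 1.21), and at 48 h 1.01 (0.792 to 1.28). Both intervals leave out a 2-fold difference in either direction. The last 300 bases of its paralog Stat5a match a stretch of a Stat5b transcript (97.6% identity over 208 bases), so some reads of these genes may not be told apart.

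The feedback inhibitors of the receptor were not lower in either APAP pool than in the control of the same time. Socs2, which restrains growth hormone signalling at the receptor, had 29 and 72 raw reads in the controls and 85 and 98 after APAP (33.0, 77.2, 72.4 and 91.9 normalised). Only the control pool at 24 h stood apart and was low. The fold of Socs2 was 2.20 (1.43 to 3.47) at 24 h, against 1.19 (0.869 to 1.64) at 48 h, but the control at 48 h was itself 2.34-fold higher (1.502 to 3.74) than the control at 24 h. Against the 48 h control pool the fold at 24 h was 0.938, so the call at 24 h rests on 1 control library. Cish, a related inhibitor and an early STAT5 target, had 22 and 23 raw reads in the controls and 42 and 37 after APAP (25.0, 24.7, 35.8 and 34.7 normalised). Its folds of 1.43 (0.835 to 2.52) and 1.41 (0.814 to 2.48) had intervals that held 1, so a change was not detectable at this depth. An annotated antisense gene, Gm17041, overlaps the terminal exon of Cish on the other strand and had 0 reads in every pool.

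**Figure D2:**
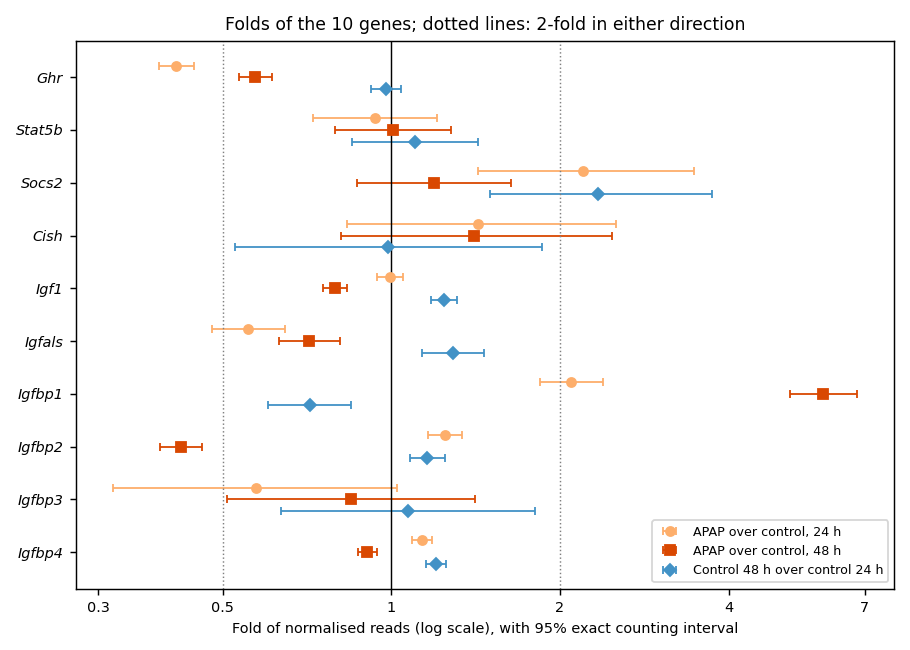
Folds (x axis, log scale) of the 10 genes for APAP over control at 24 h (circles) and 48 h (squares) and for the 48 h control over the 24 h control (diamonds), with 95% exact counting intervals and dotted lines at 2-fold. Igfbp1 stands farthest to the right at 48 h (5.90), Ghr at 24 h and Igfbp2 at 48 h lie left of the dotted line, and for Socs2 the controls differ as much (2.34) as APAP and control do at 24 h (2.20).

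The growth factor itself was close to its control, and its partner in the ternary complex was lower. Igf1, the main endocrine product of growth hormone action, had 2728 and 3387 normalised reads in the controls and 2715 and 2687 after APAP. The control pool at 48 h was high and the other 3 pools lay within 2687 to 2728. The fold of Igf1 was 0.995 (0.944 to 1.05) at 24 h, or 1.13 with library totals. At 48 h it was 0.793 (0.754 to 0.835), or 0.954 with library totals and 0.985 against the 24 h control. Igfals, the acid-labile subunit, had 475 and 612 normalised reads in the controls and 264 and 437 after APAP. Both APAP pools were below both controls. The counting intervals of the APAP pool at 48 h (398 to 478.5) and the control pool at 24 h (431 to 523) overlapped, however. Igfals was 1.80 times lower (1.55 to 2.09) at 24 h, then 1.40 times lower (1.24 to 1.59) at 48 h, neither of which reached 2-fold, and the control pools differed by 1.29 (1.13 to 1.47). At 48 h its fold was 0.858 with library totals and 0.919 against the 24 h control. At 24 h it was 0.431 against the 48 h control.

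Igfbp3, the binding protein of the ternary complex, is made largely by non-parenchymal cells in rodent liver and was sparse here, with 30 and 34 raw reads in the control pools and 23 and 33 after APAP. The APAP pool at 24 h was the lowest and the other 3 pools were close to each other. The fold at 24 h was 0.574 (0.319 to 1.02), and at 48 h 0.849 (0.510 to 1.41), so a change was not detectable at this depth. Of the markers of non-parenchymal cells, the 6 endothelial genes summed to 643.5 and 717 normalised reads in the controls and 717 and 761 after APAP, with Lyve1 alone called (higher at both times). Among all genes tested, 4.89% were called higher at 24 h and 4.79% at 48 h. The 9 macrophage genes summed to 1066 and 1072 in the controls against 1357 and 2111, with 2 called higher at 24 h and 3 at 48 h. Those called were Marco and Lyz2 at both times and Cd68 at 48 h, while 7 and 6 macrophage genes were not called. The 7 stellate cell genes summed to 444.5 and 488 against 552 and 822 (0 and 2 called higher), the 4 neutrophil genes measured of 6 to 17.1 and 17.2 against 205 and 160 (both genes tested called higher at both times), and the 5 cholangiocyte genes to 143 and 181 against 398 and 307 (1 of 2 tested called higher at each time, Sox9 at 24 h and Spp1 at 48 h). Among these lists, only Csf3r of the neutrophil genes was at 0 reads in a control pool. Their part in the level of Igfbp3 was not tested.

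Among the 10 genes, the fold farthest from 1 was that of Igfbp1 at 48 h. Igfbp1, which binds IGF-1 in a small complex and limits its action when insulin is low, had 363 and 259.5 normalised reads in the controls and 759.7 and 1531 after APAP. Both APAP pools were above both controls, and the later one was above the earlier one. Igfbp1 was 2.10-fold (1.84 to 2.39) and 5.90-fold (5.15 to 6.78) higher at 24 h and 48 h. At 48 h, 0.413% of all genes tested had a fold as high. The fold at 48 h was 2.82 times (2.33 to 3.41) that at 24 h. Part of this gap lies in the controls, as the 48 h control was 0.716 times (0.603 to 0.848) the 24 h control, and against the pool of the other time the folds were 2.93 and 4.22. Between the APAP pools, Igfbp1 was 2.02-fold higher (1.86 to 2.19) at 48 h than at 24 h.

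Igfbp2, another of the binding protein genes, was called lower at 48 h and not at 24 h. It had 1537 and 1781 normalised reads in the controls, and 1916 (24 h) and 751 (48 h) after APAP. Only the last pool was low, below all others. The fold was 1.25 (1.16 to 1.33) at 24 h, in the range of the difference between the control pools (1.16, 1.08 to 1.25). At 48 h Igfbp2 was 2.37 times lower (2.18 to 2.58), and with library totals the fold was 0.507, just short of the threshold. A fold as low was found for 3.31% of all genes. The fold at 48 h was 0.338 times (0.303 to 0.378) that at 24 h, the widest gap between times among the 10 genes in that direction. From 24 h to 48 h after APAP, Igfbp2 was 2.55 times lower (2.35 to 2.77), the opposite direction to Igfbp1. No other gene of the axis passed 2-fold between the APAP pools, beside 2.36% of all genes higher and 2.42% lower.

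Igfbp4, a binding protein that inhibits IGF action until it is cleaved, had 4735 and 5698 normalised reads in the controls and 5369 and 5161 after APAP. The APAP pools lay between the control pools. Its fold at 24 h was 1.13 (1.09 to 1.18), and at 48 h 0.906 (0.872 to 0.941), where it turns to 1.09 with library totals. Both intervals leave out 1, but the control pools differed by more (1.20, 1.16 to 1.25).

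As MACE yields 1 read per captured transcript end, the reads of the 4 binding protein genes can be taken as shares of their sum in each library, a measure that needs no size factor. Igfbp1 made up 5.44% (95% exact binomial interval 4.87 to 6.05) and 3.34% (2.94 to 3.78) in the controls, and 9.42% (8.84 to 10.03) and 20.5% (19.6 to 21.4) at 24 h and 48 h after APAP. Igfbp2 made up 23.0% and 22.9% in the controls, 23.8% (22.9 to 24.6) at 24 h after APAP and 10.05% (9.397 to 10.7) at 48 h. Igfbp4 remained between 66.6% and 73.3%, and Igfbp3 between 0.243% and 0.511%. The sum of the 4 genes was 1.21 times its control at 24 h and 0.961 times at 48 h.

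**Figure D3:**
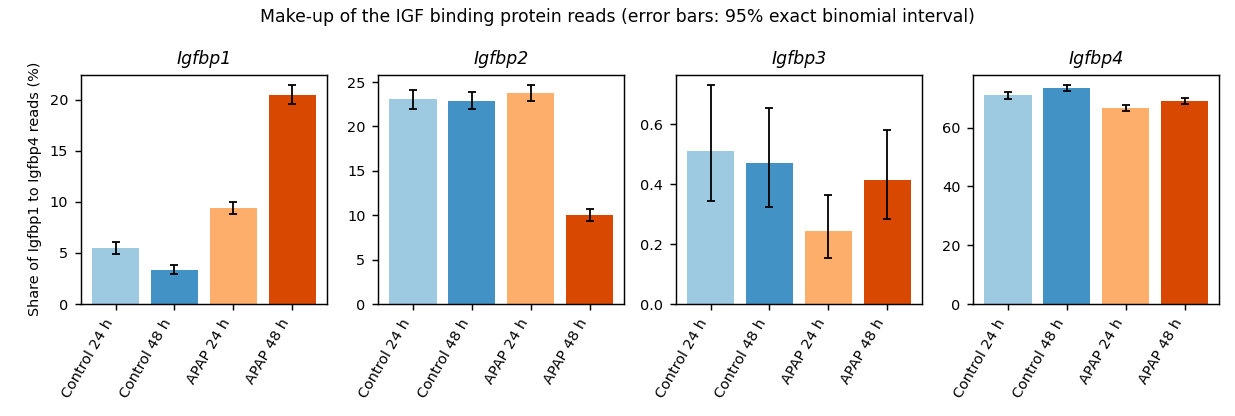
Share of each gene (y axis, percent, each panel with its own scale from 0) in the reads of Igfbp1 to Igfbp4 in each pool, with 95% exact binomial intervals. The share of Igfbp1 was 20.5% in the APAP pool at 48 h against 3.34% in its control, and that of Igfbp2 10.05% against 22.9%.

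Other genes of growth hormone signalling gave a mixed picture. Of 19 genes on this list, 17 were tested: 3 were called higher and 1 lower at 24 h, beside 4.89% and 4.99% of all genes, and 1 higher and 1 lower at 48 h, beside 4.79% and 4.99%. The list had a median log2 fold of 0.33 and -0.07 beside 0.01 and -0.02 over all genes tested. Socs3, an inhibitor of cytokine receptors induced through STAT3, was the gene called at both times, with 12.5 and 18.2 normalised reads in the controls and 117.5 and 45.9 after APAP. Its folds were 9.40 (5.09 to 19.3) and 2.52 (1.43 to 4.67). The others were named after their values were seen. They are the phosphatase gene Ptpn2 (2.31-fold, 1.47 to 3.74) and the insulin receptor substrate Irs2 (2.17-fold, 1.29 to 3.81), higher at 24 h, the hepatic transcription factor Onecut1, 2.44 times lower (1.68 to 3.57) at 24 h, and the repressor Bcl6, 3.01 times lower (2.17 to 4.23) at 48 h. Against the control pool of 48 h, the folds of Ptpn2 (1.67) and Irs2 (1.21) at 24 h were no longer called, and Bcl6 was called lower there (0.458). The kinase gene Jak2 had a fold of 1.04 (0.652 to 1.66) at 24 h and 2.00 (1.17 to 3.51) at 48 h, just under the threshold, which it passed with TMM scaling, but against the control pool of 24 h its fold at 48 h was 1.16.

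Of 13 further IGF ligands, receptors and processing genes, 4 had enough reads to be tested and 0 were called at either time. The IGF-1 receptor Igf1r, which hepatocytes hardly express, had 14 and 17 raw reads in the controls and 34 and 26 after APAP. Its fold at 24 h was 1.82 (0.951 to 3.67), and at 48 h 1.34 (0.699 to 2.63). The insulin receptor Insr was at 0.963 (0.770 to 1.21) and 1.23 (0.985 to 1.54). Igf2, the fetal ligand, had 2 to 5 reads in each pool, at or near the floor of 3 reads, so that no fold is given at 48 h.

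Of the 19 genes whose male-biased level in liver depends on growth hormone, all tested, 7 were called lower at 24 h and 14 at 48 h, with 0 called higher. At 24 h the other 12 were not called, 5 of them with folds above 1, and the summed normalised reads of the list were 1.04 times their control, against 0.526 times at 48 h. Their median log2 fold was -0.36 at 24 h and -1.51 at 48 h, beside 0.01 and -0.02 over all genes tested, of which 4.99% were called lower at either time. With library totals, 6 and 11 of the 19 were called lower, and against the control pool of the other time 9 and 11. By the smaller of the folds at both times, the first 4 are Elovl3, Hsd3b5, Cyp4a12a and Slco1a1. Elovl3, a fatty acid elongase, had 767 and 741 normalised reads in the controls and 147 and 93.8 after APAP, 5.21 times (4.40 to 6.19) and 7.90 times (6.40 to 9.85) lower. Hsd3b5, a steroid-metabolising enzyme of male liver, had 406 and 471 in the controls against 86.9 and 47.8, 4.67 times (3.74 to 5.88) and 9.84 times (7.35 to 13.4) lower. The P450 gene Cyp4a12a had 1028 and 1401 against 375.6 and 165.0, 2.74 times (2.44 to 3.07) and 8.49 times (7.25 to 9.997) lower. Some of its reads may not be told from those of Cyp4a12b (98.6% identity over 295 bases). Cyp4a12b is counted apart in the list and was also called lower at both times. The organic anion transporter Slco1a1 had 640.0 and 864.2 against 240.2 and 184.7, 2.67 times (2.31 to 3.09) and 4.68 times (3.999 to 5.496) lower. Both APAP pools lay below both controls for all 4 genes, which their choice by the folds at both times made likely beforehand. The 7 Mup genes, urinary pheromone carriers of which 6 share their 3′ ends with other Mup genes, were not called at 24 h. Without them, 7 of 12 genes were called lower at 24 h and 9 of 12 at 48 h. The pericentral markers given above were also lower in both APAP pools, and their part in this list was not tested.

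Female-biased liver genes, which male growth hormone pulses keep low, were mostly sparse. Of 16 genes, 7 were tested, with 3 called lower at 24 h (Cyp2a4, Cyp2c40 and Cyp2c69, whose 3′ ends are shared with relatives) and 2 called higher at 48 h (Cux2 and Fmo2), beside 4.99% and 4.79% of all genes, a set named after its values were seen. Cux2, a female-specific transcription factor of mouse liver, had 28 and 18 raw reads in the controls and 27 and 46 after APAP, with folds of 0.723 (0.410 to 1.27) and 2.24 (1.27 to 4.10). Its call rests on the low control pool of 48 h, since against that of 24 h the fold was 1.36 (0.829 to 2.25), while Cyp17a1, a steroid-metabolising P450, was then called higher (2.17). Against the control pool of 48 h, Cyp2a4 was no longer called at 24 h (0.643). Fmo2, a flavin monooxygenase, had 13 and 13 raw reads against 33 and 51, and was 3.43-fold higher (1.84 to 6.88) at 48 h. The median log2 fold of the 7 genes was -0.58 at 24 h and -0.47 at 48 h. The remaining 9 genes had too few reads to be tested.

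**Figure D4:**
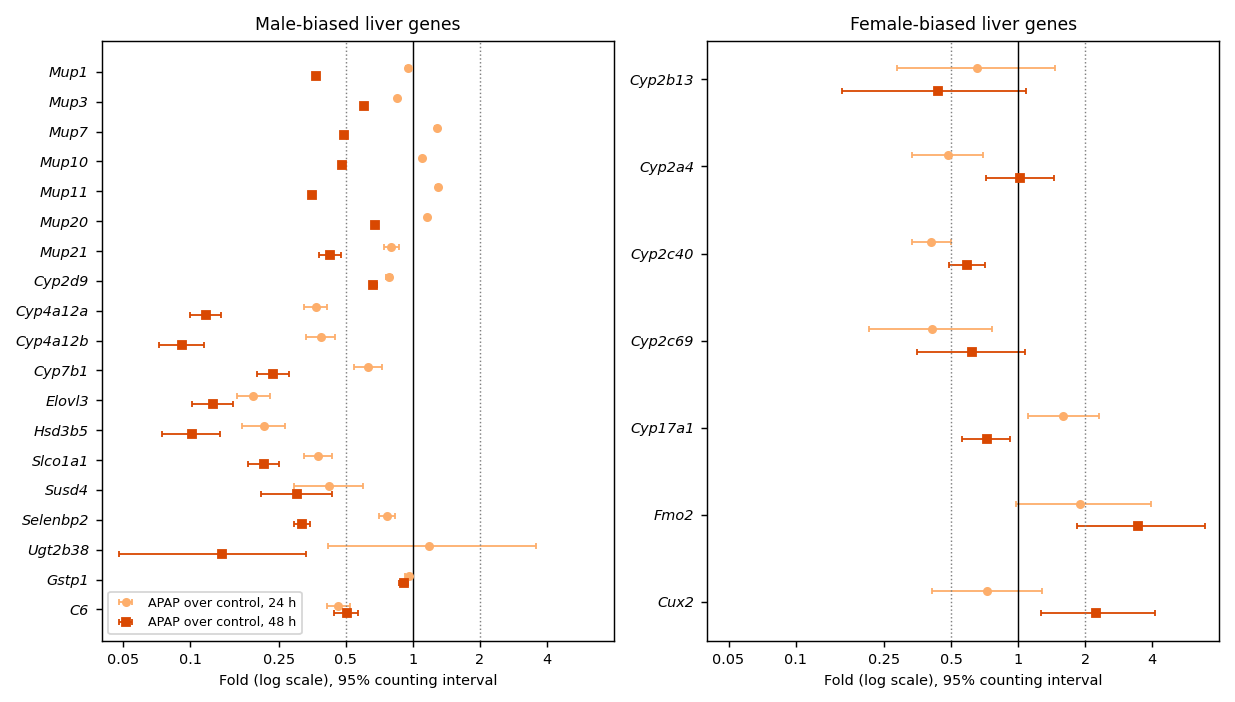
Folds (x axis, log scale) of APAP over control at 24 h (circles) and 48 h (squares) for the 19 male-biased and the 7 tested female-biased liver genes, with 95% exact counting intervals and dotted lines at 2-fold. At 48 h, 14 male-biased genes lie left of the lower dotted line, while Cux2 and Fmo2 are the genes right of the upper one.

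Genes that, like Igfbp1, are known to be driven by FOXO1 when insulin is low did not share one direction. Of 10 genes, all tested, 2 were called higher and 2 lower at 24 h, beside 4.89% and 4.99% of all genes, and 1 higher and 1 lower at 48 h, beside 4.79% and 4.99%. The median log2 fold was 0.17 at 24 h and -0.26 at 48 h. Pck1, which commits carbon to glucose synthesis, had 807 and 969 normalised reads in the controls and 3282 and 3204 after APAP, 4.07-fold (3.75 to 4.41) and 3.31-fold (3.07 to 3.56) higher. G6pc, the glucose-6-phosphatase of the last step of the same pathway, had 610.5 and 565 in the controls and 139 and 189 after APAP, 4.40 times (3.68 to 5.27) and 2.98 times (2.53 to 3.53) lower. At 24 h Irs2 was also called higher and Pdk4 lower (2.67 times, 1.19 to 6.39), both named after their values were seen. Neither call held against the control pool of 48 h, where the folds were 1.21 for Irs2 and 0.883 for Pdk4.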

How the data were processed

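Pooled hepatic RNA (1 library per group, 4 in all) had been digested with DNase and read by MACE. Reads that shared a molecular identifier had been collapsed to 1, low-quality bases removed (cutadapt), poly(A) stretches clipped and reads placed on mm10. The authors deposited raw HTSeq counts per gene. Aligner and versions are not given in the sources used here. The deposited table also holds the authors' RPM values, which matched the scaled counts within 5.0e-04, and their log2 ratios, p-values and FDR values (DESeq2 per the submitters' processing notes), which were not used.

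Size factors were computed by DESeq2 1.42.0 (median of ratios) and, as alternatives, by edgeR 4.0.16 (TMM) and from library totals, in R 4.3.3. With 1 library per group no test within a time could be made. Over both times, treatment was tested by edgeR's quasi-likelihood fit with time as a block, Benjamini-Hochberg adjusted over all genes tested. This fit was added after seeing the data. Folds and intervals were computed in Python 3.11.15 with scipy 1.17.1 and tested on simulated data, and plots drawn with matplotlib 3.10.9. A count of 3 reads or fewer was set to 3 reads for a fold, and no fold was given where both counts were at or under it. The interval of a ratio of folds is the exact conditional interval of the 4 counts. Intervals and floor cover counting error only. Positions are from GENCODE M21 (GRCm38), and shared 3′ ends were sought by blastn 2.17.0 (at least 95% identity over 100 bases). Promoters are from RefSeq.

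The genes of the axis and the lists (growth hormone signalling, further IGF genes, male-biased, female-biased and FOXO1-regulated liver genes, and cell type markers) were chosen with earlier results of these data known. From each list, the first 4 genes called in 1 direction at both times, by the smaller fold, were named, and others only where said. Alternatives were the scalings, the other or both control pools, a pseudocount of 1, the thresholds and the filter on reads.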

Additional observations from a re-analysis of the deposited data

Results flagged for a closer look

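For 7 of the 10 genes the exact 95% interval of the fold at 48 h over the fold at 24 h left out 1, which is a test on the reads of 4 libraries and not on mice. The same was not counted over all genes, so this count has no background. In deeply read genes such as Igf1 and Igfbp4, a small gap is enough to leave out 1. The ratio was 2.82 (2.33 to 3.41) for Igfbp1, 1.38 (1.25 to 1.53) for Ghr and 1.28 (1.06 to 1.56) for Igfals. It was 0.338 (0.303 to 0.378) for Igfbp2, 0.542 (0.310 to 0.938) for Socs2, 0.797 (0.740 to 0.858) for Igf1 and 0.799 (0.756 to 0.844) for Igfbp4. For Socs2, Igf1 and Igfbp4 the control pools differed from each other by at least as large a fold as either APAP pool did from its own control (2.34, 1.24 and 1.20), apart from Igf1 at 48 h, which was 1.26 times lower than its control. For Igfbp1, Igfbp2 and Ghr the APAP pools themselves differed between the times (2.02-fold higher, 2.55 times lower and 1.35-fold higher at 48 h), as they did for Igfals (1.66-fold higher, 1.43 to 1.92), whose control pools also differed (1.29).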

How the results depend on the processing

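Each group was 1 library, so replicate numbers paired no samples and no replicate could be left out. The pools are matched by time, and the fit of treatment with time as a block is given with the counts of genes called. By the rules used, 191 of 256 alternative values for 58 results stayed the same, 64 moved and 1 reversed. The cause of a move was not tested unless given by the alternative itself. A fold or ratio of folds stayed the same inside its main counting interval, and a count or share within 1.5 times. Only the fold of a called gene could be labelled reversed, and others that crossed 1 were not. With library totals Stat5b at 24 h went from 0.933 to 1.06 (same), and Igfbp4 at 48 h from 0.906 to 1.09 (moved). The reversed value was the fold of Socs2 at 24 h, 0.938 against the control pool of 48 h. Scaling to hepatocyte markers, leaving out the Mup genes and the fit with time as a block were chosen after seeing the data.

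Genes of the axis called higher at 24 h numbered 1 against the other control pool, 1 against both pools and 0 at 5-fold, and those called lower 2, 2 and 0, and 2 at 1.5-fold. At 48 h, 2 were higher against the other control pool, and those lower numbered 0 with library totals, 0 at 5-fold and 2 at 1.5-fold. With library totals the folds at 24 h were 0.470 (Ghr), 1.13 (Igf1), 1.42 (Igfbp2) and 1.29 (Igfbp4), and at 48 h 0.687 (Ghr), 0.954 (Igf1), 0.858 (Igfals), 7.10 (Igfbp1), 0.507 (Igfbp2) and 1.09 (Igfbp4). Against the other control pool they were 0.802 (Igf1), 0.431 (Igfals), 2.93 (Igfbp1), 1.08 (Igfbp2) and 0.942 (Igfbp4) at 24 h. At 48 h they were 2.79 (Socs2), 0.985 (Igf1), 0.919 (Igfals), 4.22 (Igfbp1), 0.489 (Igfbp2) and 1.09 (Igfbp4). Against both control pools they were 1.30 (Socs2), 0.885 (Igf1), 2.45 (Igfbp1), 1.15 (Igfbp2) and 1.03 (Igfbp4) at 24 h, and 1.65 (Socs2), 0.876 (Igf1), 4.95 (Igfbp1) and 0.987 (Igfbp4) at 48 h. With hepatocyte markers, Igf1 was at 1.07 and Igfbp4 at 1.21 at 24 h. The ratio of the folds of Igfbp4 was 0.844 with library totals.

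Among all genes, the share called higher at 24 h was 3.15% with any read, 2.27% at a mean of 100 reads and 7.83% with library totals, and lower 3.07% with any read and 3.15% with library totals. At 48 h it was 1.86% (mean of 100) and 8.89% (library totals) for higher genes and 2.96% (any read) and 2.84% (library totals) for lower ones. For growth hormone signalling, 1 was higher and 2 were lower at 24 h against the other control pool, and 2 (TMM) and 3 (library totals) higher at 48 h. At 24 h, 1 further IGF gene was higher with library totals, as was 1 female-biased gene, also against the other control pool. Of FOXO1-regulated genes, 1 was higher and 1 lower at 24 h and 2 lower at 48 h against the other control pool. Without the Mup genes, 9 male-biased genes were lower at 48 h.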
